A study of Mus musculus with 8 samples.

Results

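The Nfat genes encode the nuclear factors of activated T cells, and the mouse genome holds 5 of them: Nfatc1, Nfatc2, Nfatc3, Nfatc4 and Nfat5. Each gene was taken with its RefSeq gene body and 50 kb on each side, and every peak of accessible chromatin that overlapped this window by at least 1 bp was counted. The 5 windows held 365 of the 345333 peaks in the 4 deposited lists, and did not overlap each other. Joined across the lists wherever they lay within 10 bp, the peaks formed 199 merged regions of 185271 in the genome.

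Nfatc1 to Nfatc4 are kept phosphorylated in the cytoplasm until a rise of calcium activates calmodulin and the phosphatase calcineurin, which strips the phosphates and sends the proteins to the nucleus. There they bind the letters GGAAA, often beside an AP-1 dimer of Fos and Jun proteins. Nfat5 shares the DNA-binding fold, but it does not answer to calcineurin. It is known as the factor that turns on genes for osmolyte transport and synthesis when cells meet high salt, a task of particular weight in a tissue such as the lens, which must hold its water content steady to stay transparent.

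The study used ATAC-seq, in which the transposase Tn5 cuts open DNA and tags it for sequencing, on lens tissue of CD1 mice, microdissected and pooled over several lenses per library, at 2 stages, E14.5 of gestation and P0.5 after birth. The 4 groups were E14.5 epithelium, E14.5 fiber, P0.5 epithelium and P0.5 fiber, with 2 libraries in each and 8 in all, and no genetic change or treatment was named for any of them. The epithelium is the dividing layer at the front of the lens, and fibers are the elongated cells that arise from it. Each group was deposited as 1 peak list called on its pooled libraries, so that no value below has a replicate error and none was tested.

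A peak was placed by the rank of its fold enrichment, the ratio of reads at its summit to the background, within its own list. Ranks are given as a percent of the list, so that 1% is near the top and 100% is the weakest peak. Tied peaks share the best rank of the tie. Ties were common and small differences of rank between lists do not order the groups. The 82 Nfat peaks of the P0.5 fiber list took 14 distinct fold enrichment values, against 37 for 102 peaks in E14.5 epithelium, 45 for 126 in E14.5 fiber and 21 for 55 in P0.5 epithelium. A less accessible site and fewer cells with an open site cannot be told apart in such bulk samples.

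The lists held 100003 peaks for E14.5 epithelium, 123743 for E14.5 fiber, 58592 for P0.5 epithelium and 62995 for P0.5 fiber, and read depth cannot be read from them. By the study's methods, the number of cells per library differed between the stages and between the P0.5 tissues. Its part was not tested. A q value under 0.001 was reached by 80.5% to 87.9% of peaks in 3 lists and by 48.9% in the P0.5 fiber list. At the Nfat loci this left 89, 93, 48 and 33 peaks in the same order of lists. Promoters of all 5 lens epithelium markers had a peak in every list, and their median ranks were near 7% at E14.5 in both tissues (6.84% and 7.10%) and 10.8% and 10.3% at P0.5, so they did not separate epithelium from fiber. The 8 lens fiber markers had a promoter peak for 6 or 7 genes per list, with median ranks of 1.3% and 9.32% in the fiber lists against 10.4% and 17.5% in the epithelium lists at the same stages. Of other cell types, the 4 cornea and skin markers had no promoter peak in any list, the 6 blood and macrophage markers had 1 to 3, the 6 endothelial markers 2 to 5, the 5 retina markers 2 to 5, and the 5 markers of periocular mesenchyme had all 5 in each list. Of the blood and macrophage markers, Ptprc, Cx3cr1 and Hba-a1 had none, Spi1 and Csf1r had one in 3 lists each, the best that of Spi1 at 10.7% in E14.5 fiber, and the globin gene Hbb-bs had one in E14.5 epithelium at 55.5%. The best of the retina markers was Elavl4, at 6.29% in E14.5 fiber and 9.54% to 15.7% in the other lists, and the best of the mesenchyme markers was Foxc1, at 5.47% to 14.0%. Both ranked ahead of the Nfatc1 and Nfatc2 promoters in every list. The part of such cells in the values below was not tested.

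All 5 Nfat genes had a promoter peak, within 2 kb of a RefSeq start site, in every list. Of all 21000 protein-coding genes, E14.5 epithelium had such a peak for 70.3% and E14.5 fiber for 71.2%, P0.5 epithelium for 67% and P0.5 fiber for 64.6%, and 60.6% had one in all 4 lists. The members differed in how strong these promoter peaks were. Nfat5 and Nfatc3 ranked among the top 10% of every list, although among P0.5 fiber peaks with a q value under 0.001 Nfatc3 lay at 15.7%, and Nfatc1 and Nfatc2 lay at 12.3% or weaker throughout. Nfatc4 stood between these pairs in both epithelium lists, and in the fiber lists it lay among Nfatc1 and Nfatc2. In all lists except E14.5 epithelium this place of Nfatc4 rests on the 2 kb: within 1 kb it was the weakest of the 5 genes in E14.5 fiber and in P0.5 epithelium, there at 75.7%, and had no peak in P0.5 fiber. The top 10% held 2 of the 5 genes in each list, and of all 21000 genes it held 8804 in epithelium and 9983 in fiber at E14.5, and 5814 and 6334 at P0.5. Ranked by p value in place of fold enrichment, the promoter ranks of the 5 genes were identical in every list, so this ranking adds no separate check. Genes with a promoter peak had a median rank of 7.68% and 6.10% in epithelium and fiber at E14.5 and of 12.8% and 10.3% at P0.5.

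**Figure D1:**
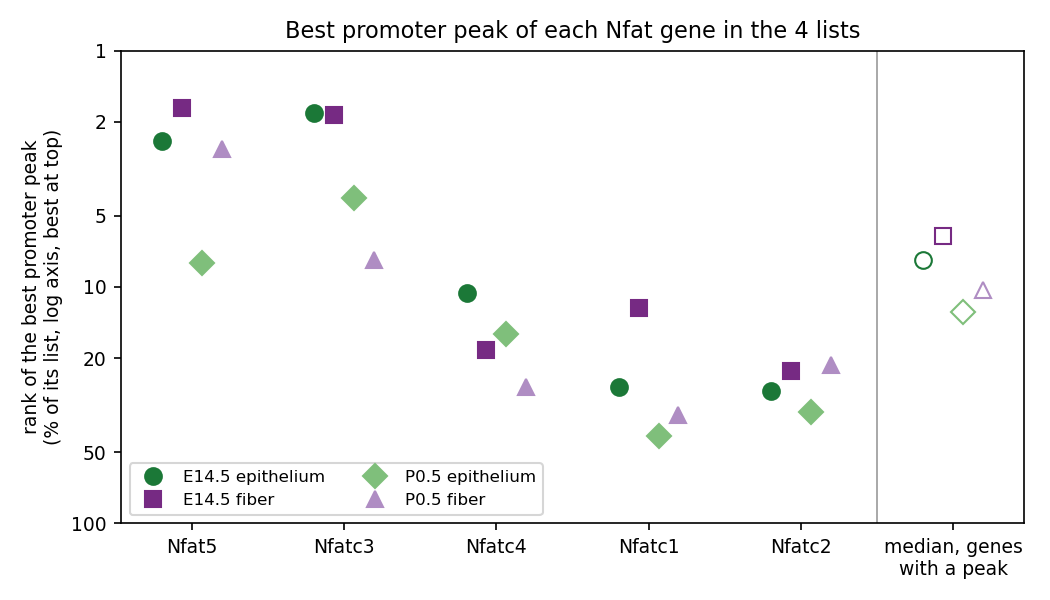
Rank of the best promoter peak of each Nfat gene, as a percent of its list on a log axis with the strongest at the top, in the 4 lists; open symbols give the median over all protein-coding genes with a promoter peak. All symbols of Nfat5 and Nfatc3 lie between 1.74% and 7.95%, and all symbols of Nfatc1 and Nfatc2 between 12.3% and 42.9%.

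Nfat5, the osmotic stress factor, had the strongest promoter of the family in both fiber lists. Its best promoter peak ranked at 2.41% and 1.74% in E14.5 epithelium and fiber and 7.95% and 2.61% in P0.5 epithelium and fiber. All 4 peaks covered the single start site, at position 107293470 on the plus strand of chromosome 8 (GRCm38). By rank within its list, the weakest of them was that of P0.5 epithelium. By fold enrichment it was that of P0.5 fiber, at 14.8 against 20.8 in P0.5 epithelium. The peak was 1704 bp wide in E14.5 epithelium and 2143 bp in E14.5 fiber, against 850 bp and 604 bp in the P0.5 lists. In E14.5 epithelium, 87.2% of all protein-coding genes had a weaker promoter peak or none, and the shares were 88.4% in E14.5 fiber, 77.0% in P0.5 epithelium and 91.1% for P0.5 fiber.

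Past its promoter, the Nfat5 gene held few peaks. The 86048 bp body held 4 further regions, all called at E14.5 alone, and 3 of them in E14.5 fiber alone at 49.3% or weaker. The remaining one lay in an intron 30.9 kb past the start site and ranked at 21.7% in epithelium and 15.9% in fiber at E14.5, with no peak in either P0.5 list. It was the best ranked Nfat5 region outside promoters in both E14.5 lists. Below are the 200 bases of its summit and of the promoter summit, each on the gene's strand and read from the GRCm38 genome; capitals mark GGAAA or its complement TTTCC. They are shown because they are the 2 places in the gene that both E14.5 lists called.

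Nfat5 promoter, chr8:107293262-107293461, plus strand: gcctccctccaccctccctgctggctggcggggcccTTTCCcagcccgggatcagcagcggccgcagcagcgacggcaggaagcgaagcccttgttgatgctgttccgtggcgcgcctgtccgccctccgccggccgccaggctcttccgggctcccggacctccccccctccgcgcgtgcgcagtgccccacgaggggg

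Nfat5 intron, chr8:107324252-107324451, plus strand: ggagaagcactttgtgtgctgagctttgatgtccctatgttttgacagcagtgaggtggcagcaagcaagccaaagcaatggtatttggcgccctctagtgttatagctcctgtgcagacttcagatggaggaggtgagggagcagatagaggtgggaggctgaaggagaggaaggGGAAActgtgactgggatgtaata

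Both windows held 1 match to GGAAA and 1 to the Maf letters TGCTGA. The promoter window was 75.5% G and C and the intron window 51%. In every list the best region of the Nfat5 window beside its own promoter lay over the promoter of Nob1, a ribosome assembly factor, at 4.95% in epithelium and 5.18% in fiber at E14.5, and 7.24% and 4.64% at P0.5. In P0.5 epithelium it ranked above the Nfat5 promoter itself. A region over the promoter of Nqo1, a quinone reductase gene, was called in 3 lists at 22.5% to 38% and not in P0.5 fiber. The 1 region that both fiber lists and neither epithelium list called lay in the body of Nob1, 121 kb past the Nfat5 start site, at 80.5% in E14.5 fiber and 18.2% in P0.5 fiber.

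Nfatc3, known from T cells and muscle, ranked near Nfat5 in both E14.5 lists and had a weaker promoter in P0.5 fiber. Its best promoter peak ranked at 1.83% and 1.87% in E14.5 epithelium and fiber and 4.22% and 7.65% in P0.5 epithelium and fiber. The peak was 1469 bp, 1685 bp, 1252 bp and 842 bp wide in the same order. The gene has 2 start sites, at positions 106058818 and 106059590 of chromosome 8, and the peak covered the downstream one in all 4 lists. Its summit fell between 56 bp and 102 bp upstream of that site. The upstream site was covered in E14.5 fiber alone.

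The rest of the 71720 bp gene body held 1 region, in an intron 53.9 kb past the upstream start site, at 34.2% in E14.5 fiber and with no peak in the 3 other lists. Its 200 summit bases follow the 250 bases before the downstream start site, the latter from RefSeq (GRCm38.p6).

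Nfatc3 promoter, chr8:106059340-106059589, plus strand: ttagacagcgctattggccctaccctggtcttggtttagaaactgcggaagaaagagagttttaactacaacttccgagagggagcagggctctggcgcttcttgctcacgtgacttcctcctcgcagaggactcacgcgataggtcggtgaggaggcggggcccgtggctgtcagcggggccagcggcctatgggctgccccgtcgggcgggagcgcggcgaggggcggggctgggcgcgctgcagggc

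Nfatc3 intron, chr8:106112627-106112826, plus strand: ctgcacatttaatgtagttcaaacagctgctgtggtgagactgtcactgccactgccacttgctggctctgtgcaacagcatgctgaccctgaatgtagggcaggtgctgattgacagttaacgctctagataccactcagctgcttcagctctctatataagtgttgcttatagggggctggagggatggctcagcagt

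Neither sequence held GGAAA, and the intron window had 3 matches to TGCTGA. The flanks of Nfatc3 were crowded by promoters of 6 other genes. That of Pla2g15, a lysosomal phospholipase, ranked at 4.62% in epithelium and 3.27% in fiber at E14.5, and 3.97% and 5.69% at P0.5, ahead of the Nfatc3 promoter in both P0.5 lists. Of the regions outside promoters, the best in 3 lists lay 82.2 kb past the upstream start site, outside all genes, and was called in all 4 lists, at 16.4% and 12.7% in E14.5 epithelium and fiber and 26.3% and 48.9% in P0.5 epithelium and fiber. Both fiber lists and neither epithelium list called a pair of regions in the upstream neighbour Dus2. One lay 36.1 kb before the upstream start site, at 15.6% in E14.5 fiber and 34.7% in P0.5 fiber, and the other 14.4 kb before it, at 53.3% and 34.7%.

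Nfatc4, studied in neurons and blood vessels, is the shortest gene of the family, with a body of 9149 bp and 1 start site at position 55824795 of chromosome 14. Its best promoter peak ranked at 10.6% in epithelium and 18.5% in fiber at E14.5, and 15.8% and 26.4% at P0.5. The P0.5 fiber rank was 54.0% when only peaks with a q value under 0.001 were ranked. The peaks of the first 3 lists lay upstream of the start site or across it, with summits 2158 bp, 1328 bp and 1201 bp before it, and of these best peaks that of E14.5 epithelium, 2451 bp wide, covered it. E14.5 fiber had a further peak over the start site at 24.3%. The P0.5 fiber peak lay on the other side, with its summit 1593 bp inside the gene.

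Upstream of Nfatc4 the nearest P0.5 fiber summit was 36.3 kb away, over the promoter of Ripk3. The merged region across the promoter, 3134 bp wide, reached 10.6% in E14.5 epithelium, 11.1% in E14.5 fiber, through a peak that ended outside the 2 kb, and 15.8% in P0.5 epithelium. A second region, 9.29 kb upstream and outside all genes, ranked at 22.5% in E14.5 epithelium, 11.7% in E14.5 fiber and 39.5% in P0.5 epithelium. Neither was called in P0.5 fiber. Of the 199 Nfat regions, 13 (6.53%, Wilson 95% interval 3.86 to 10.9) had this pattern of all lists but P0.5 fiber, against 8.42% of all merged regions. Such intervals treat regions as independent and cover counting error only. The summits of both regions and the 250 bases before the start site are shown, since P0.5 fiber had no peak over these upstream places.

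Nfatc4 upstream region, chr14:55815403-55815602, plus strand: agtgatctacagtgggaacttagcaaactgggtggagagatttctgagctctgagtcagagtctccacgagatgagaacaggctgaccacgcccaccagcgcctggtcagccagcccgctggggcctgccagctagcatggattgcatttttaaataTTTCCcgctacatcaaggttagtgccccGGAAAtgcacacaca

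Nfatc4 promoter region, chr14:55822537-55822736, plus strand: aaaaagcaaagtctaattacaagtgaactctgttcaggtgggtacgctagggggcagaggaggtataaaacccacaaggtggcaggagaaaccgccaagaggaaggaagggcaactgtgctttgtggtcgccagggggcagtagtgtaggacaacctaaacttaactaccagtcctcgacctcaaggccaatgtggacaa

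Nfatc4 promoter, chr14:55824545-55824794, plus strand: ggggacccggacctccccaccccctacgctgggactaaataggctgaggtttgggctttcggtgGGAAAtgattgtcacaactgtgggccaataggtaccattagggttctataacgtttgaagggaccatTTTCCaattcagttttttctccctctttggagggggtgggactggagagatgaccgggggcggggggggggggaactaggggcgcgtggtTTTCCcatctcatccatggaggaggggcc

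The upstream region held 2 matches to GGAAA and 1 to the AP-1 letters TGANTCA, and the promoter held 3 matches to GGAAA, 1 of them within TGGAAA. The promoter region held no GGAAA. It held 2 matches to AGNGGGC, the core letters bound by the insulator protein CTCF, a motif searched after these sequences had been read. The downstream neighbour Nynrin carried the strongest peaks of the window. A region in its body, 49.2 kb past the Nfatc4 start site, ranked at 9.74% and 7.76% in E14.5 epithelium and fiber and 42.9% and 18.2% in P0.5 epithelium and fiber.

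Nfatc2, the main NFAT protein of resting T cells, had the weakest promoter of the family in both E14.5 lists and a stronger site inside the gene. Its best promoter peak ranked at 27.7% in epithelium and 22.8% in fiber at E14.5, and 33.9% and 21.4% at P0.5, each weaker than the median of genes with a promoter peak in that list. With a q value under 0.001 required of each peak, its P0.5 ranks were 39.1% in epithelium and 43.8% in fiber, which turns the order of the tissues. The gene lies on the minus strand of chromosome 2 with start sites at positions 168601657 and 168590365, 11.3 kb apart. In E14.5 epithelium the upstream site had the better peak, at 27.7% against 40.6%. The downstream site had the better one in the other lists, at 22.8% against 24.3% in E14.5 fiber, 33.9% against 75.7% in P0.5 epithelium and 21.4% against 34.7% in P0.5 fiber.

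The strongest Nfatc2 region in every list was intronic, 76.5 kb past the upstream start site. It ranked at 7.35% and 14.4% in E14.5 epithelium and fiber and 14.6% and 12.6% in P0.5 epithelium and fiber, ahead of both promoters in all 4 lists. The lists differ in length, and by place in the list it stood at 7354 and 17767 at E14.5 and at 8530 and 7940 at P0.5, in the same order of tissues. Its summit sequence is shown with those of the 2 promoters, since no other Nfat gene had an intronic region ahead of its promoters in every list.

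Nfatc2 intron, chr2:168525012-168525211, minus strand: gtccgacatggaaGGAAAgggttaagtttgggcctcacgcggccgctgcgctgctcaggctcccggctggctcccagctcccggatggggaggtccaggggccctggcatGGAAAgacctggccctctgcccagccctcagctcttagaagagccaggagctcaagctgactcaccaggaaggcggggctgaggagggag

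Nfatc2 upstream promoter, chr2:168601658-168601907, minus strand: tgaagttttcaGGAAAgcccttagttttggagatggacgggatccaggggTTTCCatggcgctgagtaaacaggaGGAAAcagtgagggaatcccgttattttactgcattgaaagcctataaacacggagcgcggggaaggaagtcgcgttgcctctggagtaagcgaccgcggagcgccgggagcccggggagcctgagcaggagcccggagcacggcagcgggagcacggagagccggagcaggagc

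Nfatc2 downstream promoter, chr2:168590366-168590615, minus strand: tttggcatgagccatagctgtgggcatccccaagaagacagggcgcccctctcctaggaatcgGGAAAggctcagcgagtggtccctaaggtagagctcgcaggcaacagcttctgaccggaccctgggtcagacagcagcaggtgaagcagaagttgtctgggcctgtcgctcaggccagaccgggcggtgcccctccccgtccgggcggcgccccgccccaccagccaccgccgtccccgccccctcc

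The intron window held 2 matches to GGAAA, 1 of them within TGGAAA, and 1 match to TGANTCA. The upstream promoter held 3 matches to GGAAA and the downstream promoter 1. The other 30 body regions of Nfatc2 outside its promoters were weaker, at 29.6% or below in every list, and most were called in few lists. Of its 31 body regions outside the promoters, 15 (48.4%, interval 32.0 to 65.2) were called in E14.5 lists alone, against 53.6% of all merged regions. The best of those in both E14.5 lists and neither P0.5 list lay 71.8 kb into the gene, at 35.9% in epithelium and 29.6% in fiber at E14.5. Called in both fiber lists alone were 3 regions, of which the better ranked were an intronic region 24.2 kb into the gene, at 71.6% in E14.5 fiber and 34.7% in P0.5 fiber, and a region in the neighbour Atp9a 36.0 kb upstream, at 80.5% and 26.4%.

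**Figure D2:**
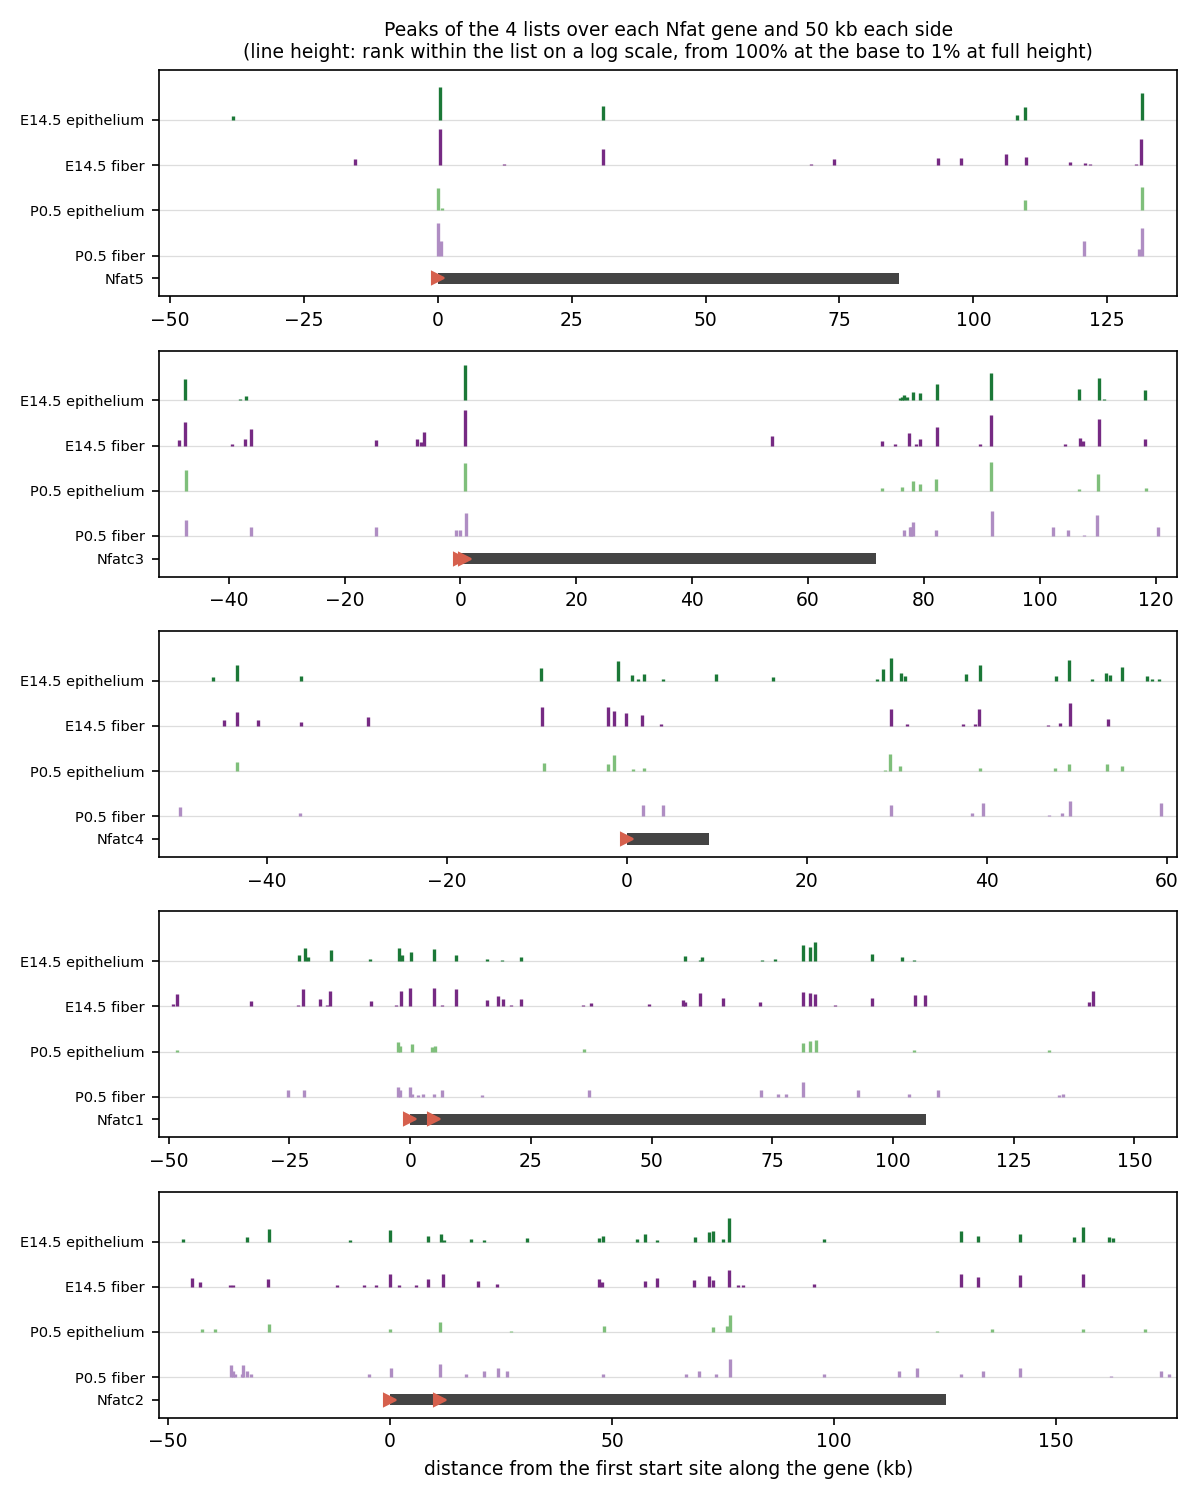
Peaks of each list over the 5 Nfat genes and 50 kb on each side, plotted by distance in kb from the first start site along the gene; each line is a peak, its height the rank within its list on a log scale from 100% to 1%, the dark bar is the gene body and red arrowheads are start sites. Nfat5 and Nfatc3 show 1 tall line at the start and a nearly empty body, Nfatc2 shows its tallest lines 76.5 kb into the gene, and Nfatc1 shows a group of lines from 81.3 kb to 84.1 kb.

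Nfatc1, known for heart valve formation and for osteoclasts, had 56 regions in its window of which 32 lay in its introns and exons outside promoters. Its best promoter peak ranked at 26.4% in epithelium and 12.3% in fiber at E14.5, and 42.9% and 34.7% at P0.5. The order of the tissues at P0.5 turned among peaks with a q value under 0.001, with 49.5% in epithelium and 71.0% in fiber. The gene lies on the minus strand of chromosome 18 with start sites at positions 80713071 and 80708173, 4.90 kb apart. The upstream promoter is known in lymphocytes as the one that NFAT proteins themselves induce. It ranked at 35.9% and 12.9% in E14.5 epithelium and fiber and 42.9% and 34.7% in P0.5 epithelium and fiber. The downstream promoter was the better one at E14.5, at 26.4% and 12.3% in epithelium and fiber. It was the weaker one at P0.5, at 52.3% in epithelium and 48.9% in fiber. That P0.5 fiber peak did not cover the start site and had its summit 1640 bp past it. The merged region over the start site ranked at 69.2% in P0.5 fiber. A further region 2.46 kb before the gene reached into the 2 kb of the upstream promoter, but its best peaks lay outside the 2 kb in all lists except E14.5 fiber. It ranked at 21.7% in epithelium and 18.5% in fiber at E14.5, and 33.9% and 34.7% at P0.5.

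E14.5 fiber stood highest of the 4 lists at both Nfatc1 promoters, and it covered 10.6% of the gene body with peaks. The body coverage was 5.41% in E14.5 epithelium, and at P0.5 it was 2.49% in epithelium and 2.28% in fiber. Medians over all genes were 2.25% and 3.54% in epithelium and fiber at E14.5 and 1.21% and 1.08% at P0.5. All 4 Nfatc1 values lay above the median of their list.

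A group of 3 intronic regions from 81.3 kb to 84.1 kb past the upstream start site, with its outer summits 2.74 kb apart, was the strongest part of the Nfatc1 window in 3 lists. The farthest of the 3 ranked at 12.1% in E14.5 epithelium, 23.5% in E14.5 fiber and 27.9% in P0.5 epithelium. The middle one, at 82.7 kb, ranked at 20.2%, 22.1% and 31.6% in the same order. P0.5 fiber called neither of them. The nearest one was called in all 4 lists, at 16.8% and 19.5% in E14.5 epithelium and fiber and 39.5% and 18.2% in P0.5 epithelium and fiber, and it was the best P0.5 fiber region of the window. It held 4 matches to GGAAA in the 200 bp of its summit, the most of any of the 199 regions.

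Along the gene, 8 of the 32 Nfatc1 body regions were called in both E14.5 lists and neither P0.5 list, a pattern of 11.4% of all merged regions. The best of them in E14.5 fiber lay 9.42 kb into the gene, at 50.8% in epithelium and 14.6% in fiber at E14.5, and the best in E14.5 epithelium lay 95.5 kb into it, at 43.5% and 40.2%. Of all 32 Nfatc1 body regions outside the promoters, 19 (59.4%, interval 42.3 to 74.5) were called in E14.5 lists alone, against 53.6% of all merged regions. Upstream, a region 16.4 kb before the gene was called at 27.7% in epithelium and 17.1% in fiber at E14.5 and in no P0.5 list. The best E14.5 fiber region outside promoters lay 21.9 kb before the gene in the neighbour Atp9b, at 13.3%, and ranked at 48.9% in P0.5 fiber and 21.7% in E14.5 epithelium.

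**Figure D3:**
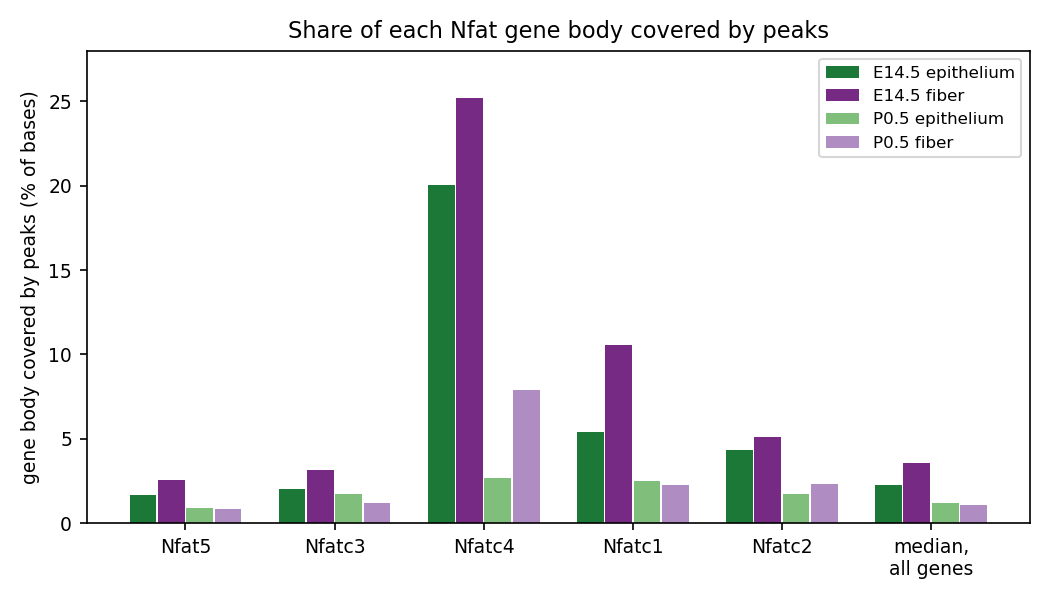
Percent of the bases of each Nfat gene body that peaks covered in the 4 lists, with the median over all 21000 protein-coding genes. Nfat5 lies below the median in every list, Nfatc1, Nfatc2 and Nfatc4 lie above it, and E14.5 fiber has the tallest bar of all 5 genes.

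The members differed widely in gene body coverage. Nfat5 had 1.67% of its body covered in epithelium and 2.56% in fiber at E14.5, and 0.917% and 0.841% at P0.5, each below the median of its list. Nfatc4, whose body is short, had 20.1%, 25.2%, 2.66% and 7.87% in the same order. In the number of peaks per 100 kb of window, Nfatc4 with its crowded flanks was highest in both E14.5 lists and in P0.5 epithelium, at 24.7, 18.3 and 12.8, and Nfat5 was lowest in every list, at 3.22 in epithelium and 8.06 in fiber at E14.5, and 2.15 and 2.69 at P0.5. Of 69 regions in introns and exons of the 5 genes outside promoters, 63 belonged to Nfatc1 and Nfatc2.

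To compare tissues and stages, each merged region was sorted by the lists that called it. Of the 199 regions, 19 (9.55%, interval 6.20 to 14.4) were called in all 4 lists, against 10.9% of all merged regions. Their median width was 1299 bp, against 1177 bp for all regions called in 4 lists, and 14 of them lay over promoters, 8 over those of Nfat genes. Regions of 1 list numbered 120 (60.3%, against 59.5% of all regions), with a median width of 174 bp against 171 bp. Nfatc3 had 6 regions in all 4 lists, Nfatc1 and Nfatc4 had 4 each, Nfatc2 had 3 and Nfat5 had 2.

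**Figure D4:**
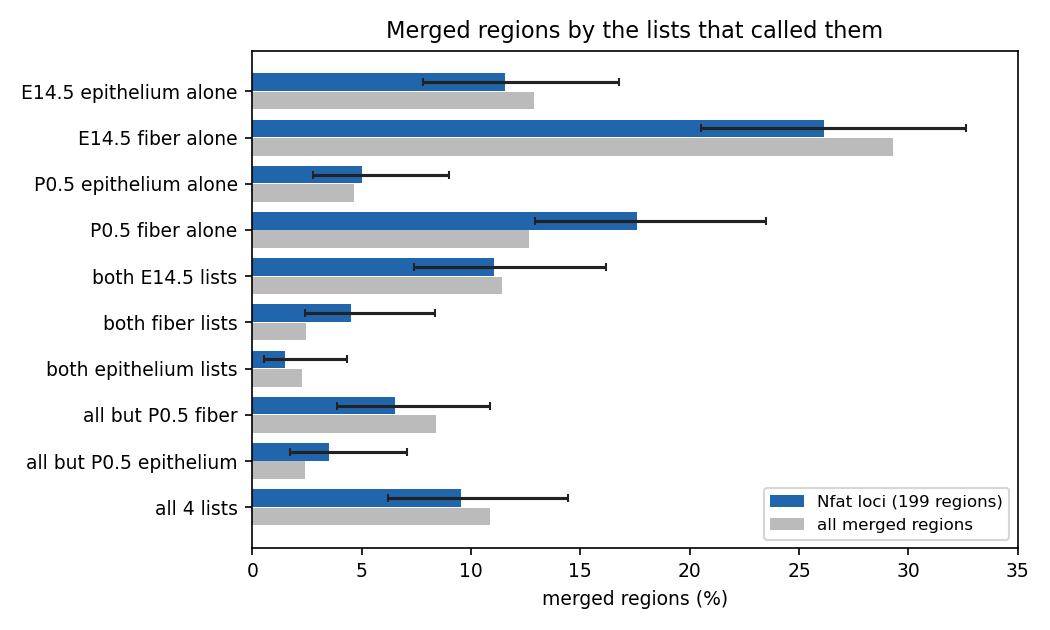
Percent of merged regions called in the lists named on the left, for the 199 regions of the Nfat loci with Wilson 95% intervals and for all merged regions. E14.5 fiber alone has the longest bar of both sets, at 26.1% for the Nfat loci and 29.3% for all regions.

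Regions called in 1 list alone numbered 23 and 52 in E14.5 epithelium and fiber and 10 and 35 in P0.5 epithelium and fiber. As shares of the 199 these were 11.6%, 26.1%, 5.03% and 17.6%, against 12.9%, 29.3%, 4.63% and 12.6% of all merged regions. E14.5 fiber alone was the most frequent pattern for Nfatc1, with 17 regions, for Nfatc3, with 10, and for Nfat5, with 10. For Nfatc4 it was E14.5 epithelium alone, with 7. P0.5 fiber alone led for Nfatc2, with 16, and Nfat5 had no such region. Of the 35 regions of P0.5 fiber alone, 5 had a q value under 0.001 (14.3%, against 23.4% of all such regions), so most were weak calls.

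Regions shared by 1 tissue or 1 stage alone were fewer. Both fiber lists and no epithelium list called 9 (4.52%, interval 2.40 to 8.37), against 2.43% of all merged regions, and both epithelium lists alone called 3 (1.51%), against 2.28%. Both E14.5 lists alone called 22 (11.1%), against 11.4%, and no Nfat region was called in both P0.5 lists alone, a pattern of 0.348% of all regions. The best of the 3 epithelium regions lay in the body of Cbln3 downstream of Nfatc4, at 20.9% in E14.5 epithelium and 58.5% at P0.5.

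Between the tissues at E14.5, 154 Nfat regions were called in either list. Of these, 30 (19.5%, interval 14.0 to 26.4) were in epithelium and not in fiber, against 19.7% of all regions, and 63 (40.9%, interval 33.5 to 48.8) were in fiber and not in epithelium, against 40.1%. Both shares lay near those of all regions. The genes differed in their own counts: Nfat5 had 2 epithelium and 11 fiber regions of this kind, Nfatc1 had 4 and 19, Nfatc3 had 3 and 13, Nfatc2 had 12 and 14, and Nfatc4 had 9 and 6.

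At P0.5, 102 Nfat regions were called in either list and 19 in both. Epithelium alone of the pair had 28 (27.5%, interval 19.7 to 36.8), against 35.2% of all regions, and fiber alone had 55 (53.9%, interval 44.3 to 63.3), against 39.7%. With all peaks the fiber share thus lay above that of all regions. With equal numbers of peaks it was 51.0% for the Nfat loci and 37.2% for all regions, and with peaks of a q value under 0.001 it was 24.1% and 18.4%, from fewer regions and with no interval computed. The epithelium share was then 44.4%, against 51.1% of all regions, so that the order of the tissues turned. Nfatc2 and Nfatc1 gave most of the 55, with 25 of 38 regions (65.8%) and 15 of 25 (60%), against 39.7% of all regions.

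From E14.5 to P0.5, regions were lost from the lists in both tissues. In epithelium, 103 regions were called at either stage, 56 (54.4%, interval 44.8 to 63.7) at E14.5 and not at P0.5, against 49.7% of all regions, and 12 (11.7%, interval 6.79 to 19.3) the other way, against 11.2%. In fiber, 163 regions were called at either stage, 89 (54.6%, interval 46.9 to 62.1) at E14.5 and not at P0.5, against 62.6%, and 39 (23.9%, interval 18 to 31) the other way, against 17.6%. Of the epithelium regions called at either stage, 10 of 14 in the Nfatc3 window and 6 of 35 in the Nfatc2 window were called at both, against 39.1% of all regions. Only 3 regions of the Nfatc3 window lay over its own promoters or body, so most of these 10 lay at neighbours or outside genes. Nfat5 gained no region at P0.5 in either tissue, and in fiber it had 12 of 15 at E14.5 and not at P0.5. The shares moved with list length. With 58592 peaks taken from each list, the epithelium shares were 25.4% and 20.6%, against 27.0% and 22.4% of all regions. Those of fiber were then 34.0% and 42.7%, against 40.5% and 33.0%, so that the order of the fiber stages turned at the Nfat loci and not over all regions. A q value under 0.001 moved the fiber shares the opposite way, to 70% at E14.5 and not at P0.5, against 74.3%, and 8% the other way, against 6.68%.

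The letters that NFAT proteins bind stood at the Nfat loci about as often as elsewhere. In the 200 bp centred on the summit, 80 of the 199 regions (40.2%, interval 33.6 to 47.1) held GGAAA on either strand, against 42.3% of all merged regions, and 23 (11.6%) held the longer TGGAAA, which contains it, against 14.7%. By gene these 80 were 27 of 56 at Nfatc1, 26 of 65 at Nfatc2, 10 of 31 at Nfatc3, 10 of 30 at Nfatc4 and 7 of 17 at Nfat5. The letters stood in 11 of the 19 regions called in all 4 lists, against 36.0% of all such regions, and in 39 of the 120 called in 1 list, against 42.9%. No Nfat region held GGAAA and TGANTCA in the same direction with 3 bases between them, a spacing of the joint NFAT and AP-1 site, and 46 of all merged regions did. In the 250 bases before start sites, 55.6% of 32851 RefSeq promoters held GGAAA.

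Other letters were searched on both strands in the same windows. The Tead letters GGAATG stood in 13 regions (6.53%, interval 3.86 to 10.9), against 13.7% of all, and the Maf letters TGCTGA in 57 (28.6%, interval 22.8 to 35.3), against 23.1%. TGANTCA stood in 13 (6.53%), against 6.61%, and the Sox letters ACAAT in 38 (19.1%, interval 14.2 to 25.1), against 22.8%. AGNGGGC stood in 48 (24.1%, interval 18.7 to 30.5), against 17.9%. The windows of the Nfat loci had a median of 55.5% G and C, against 53% for all regions.

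Most genes of the pathway around the NFAT proteins had promoter peaks in every list. Of 65 genes in 9 lists, 57 had a promoter peak in all 4 lists (87.7%, against 60.6% of protein-coding genes). Many of these genes are in use across tissues.

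**Figure D5:**
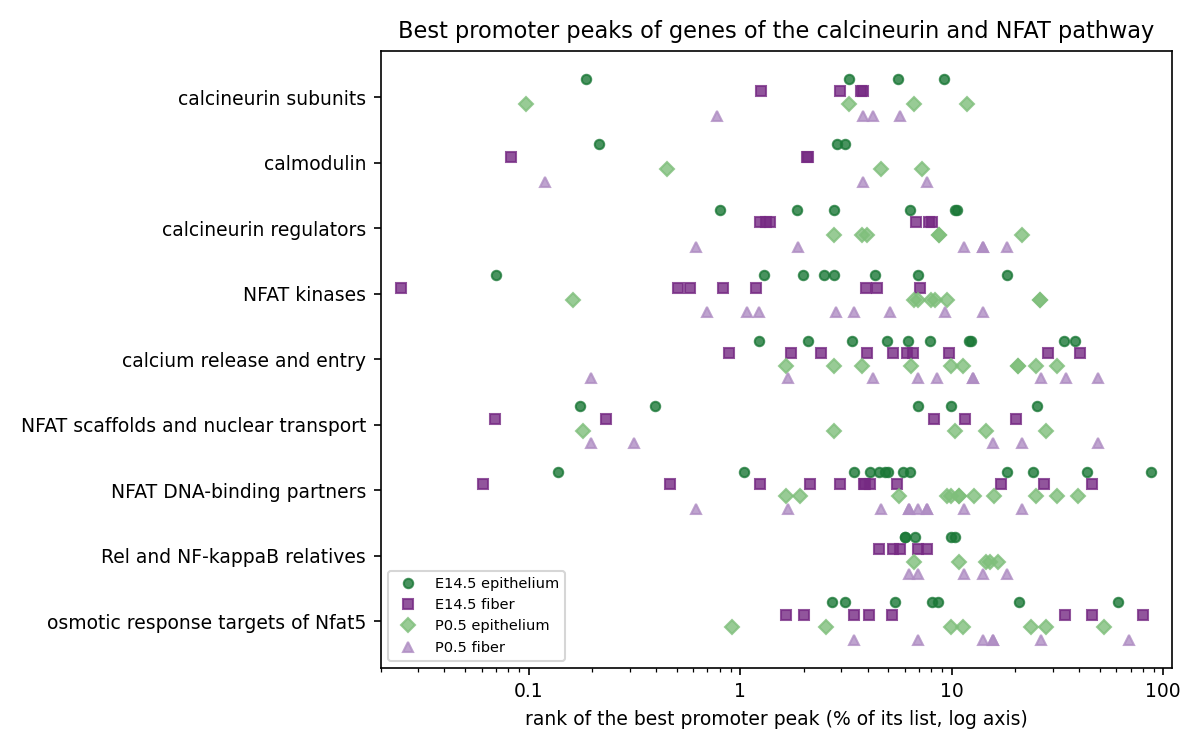
Rank of the best promoter peak of each pathway gene, as a percent of its list on a log axis, with 1 line of symbols per list; genes without a promoter peak are not drawn. Calcineurin subunits, calmodulins and kinases lie mostly under 10%, and the osmotic targets of Nfat5 spread up to 80.5%.

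Of the calcineurin subunits, 4 of 5 had a promoter peak in every list. Ppp3ca, the catalytic subunit best known from brain, ranked at 0.187% in epithelium and 1.26% in fiber at E14.5, and 0.0973% and 0.779% at P0.5, better ranked in epithelium than in fiber at both stages. Ppp3r1, the regulatory subunit, ranked at 2.96% to 3.82%. Ppp3r2, the regulatory subunit of testis, had no promoter peak in any list. Calm3, which encodes calmodulin, had one in every list, at 0.0824% to 0.449%.

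Upstream of calcineurin, all 10 genes of calcium release and entry had a promoter peak in every list. The calcium sensor Stim2 of the endoplasmic reticulum ranked at 0.197% to 2.09%, and the channel Orai1 at 0.882% to 6.40%. All 6 calcineurin regulators were called in every list. Rcan1, the inhibitor that NFAT itself induces, ranked at 0.802% and 1.38% in E14.5 epithelium and fiber and 2.78% and 0.621% in P0.5 epithelium and fiber, the best of them in 3 lists. In E14.5 fiber the calcineurin inhibitor Cabin1 at 1.24% and the calcium-binding protein Cib1 at 1.33% stood ahead of it.

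The 8 kinases that rephosphorylate NFAT were called in every list, led by Gsk3b, at 0.0700% in epithelium and 0.0251% in fiber at E14.5, and 0.162% and 0.697% at P0.5. Gsk3a, its close relative, ranked at 0.509% to 6.64%. Of 5 scaffold and transport genes, all were called in every list. The exporter Xpo1 ranked at 0.0695% to 0.197% and the importer Kpnb1 at 0.233% to 2.78%.

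Of 13 DNA-binding partners, 10 had a promoter peak in every list, with Jund and Jun the strongest, at 0.0606% to 1.65% and 0.468% to 1.91%. Fosl1 and Mef2c had none in P0.5 fiber, and Batf, the AP-1 partner of lymphocytes, was called in E14.5 epithelium alone at 87.9%. Of 10 osmotic targets of Nfat5, 6 were called in every list. Hspa4l, a heat shock protein, ranked at 0.917% to 3.45%, and Slc5a3, the myo-inositol transporter, at 2.0% to 11.3%. Slc6a12, the betaine transporter, was called in the fiber lists alone, at 80.5% and 69.2%. Hspa1b was missing in P0.5 fiber, and the kidney genes Aqp2 and Slc14a2 had no promoter peak in any list. Akr1b3, which encodes the aldose reductase known from sugar cataract and was picked after its values were seen, ranked at 3.13% and 5.22% in E14.5 epithelium and fiber and 2.54% and 15.7% in P0.5 epithelium and fiber.

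The genes with promoter ranks most like those of each Nfat gene were found by the distance over log10 rank percent in the 4 lists, among 12646 genes outside the pathway and cell type marker lists with a promoter peak in every list. For Nfat5 these were Taok3, Rapgef6 and Kmt2a, at distances of 0.07 to 0.09. For Nfatc3 they were Lcmt1, Cfap20 and Fam222b, and for Nfatc4 Trip6, Layn and Ablim1, the latter at 0.10 to 0.12. Nfatc1 had Sema4g, Ltb4r1 and Mesp2, and Nfatc2 had Abca14, Crym and Calb2, of which the first pair had the same rank in every list.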

How the data were processed

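Peaks of ATAC-seq libraries from CD1 mouse lenses, 2 for each tissue and stage, were analysed as 4 deposited lists. Per the submitters' processing notes and the study's methods, the authors trimmed reads with Trim Galore 0.4.1, mapped them to mm10 with Bowtie2 2.3.3.1, used SAMtools 1.2 and Picard 2.1.1 for filtering and removal of duplicates, and ran MACS2 2.1 on the reads of both libraries together, keeping peaks up to a q value of 0.05. The deposited values of each peak are a fold enrichment (a ratio to background) and −log10 p and −log10 q values made by the authors with MACS2 from the pooled reads. The deposited score and summit offset came with them, and the score was not used. Stage and tissue in the labels set the group of each list, with 0 columns left over. Read depth and replicate spread are not in the lists, so values are descriptions without a test. Fold enrichment was turned into ranks, list by list.

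Windows were the RefSeq GRCm38 bodies of curated transcripts plus 50 kb. Peaks were merged at 10 bp with bedtools 2.31.1; ranks, counts and Wilson 95% intervals used python 3.11.15, pandas 2.3.3, numpy 2.4.6 and scipy 1.17.1, and figures matplotlib 3.10.9. A promoter lay within 2 kb of a curated start site. Motifs, of which AGNGGGC was added after sequences had been read, were searched in 200 bp of the GRCm38 genome centred on the strongest summit of a merged region. RefSeq promoter sequences matched 4 of the 5 genes; that of Nfatc1 was not used here. Merging and motif calls were tested on simulated data, and 100% of 2000 regions and of 400 sequences came out right.

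Named by rule were the 5 Nfat genes; neighbours with the best ranked region of a window; of each pathway list, genes without a promoter peak in at least 1 list and the 2 best ranked; for each Nfat gene and list the best region over its promoters, the best outside promoters and the widest peak; regions of 1 tissue or 1 stage, the best 2 per gene; and the 3 genes nearest in promoter rank. One gene that this rule names is not reported here. The neighbours Dus2, Nqo1 and Atp9a were named to place regions. The members and the lists were chosen with earlier results of these data known. Alternatives were a q value under 0.001, equal numbers of peaks, other windows, merge distances, promoter widths and ranks, and other motif letters and windows.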

Additional observations from a re-analysis of the deposited data

How the results depend on the processing

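No paired analysis was possible because the libraries of a group were pooled before peaks were called, and for the same reason no library could be left out. Of 127 recomputed values, 94 stayed within 1.5 times a count or rank, or within the interval of a share. These 94 include every rank by p value, which repeats the rank by fold enrichment. The Nfatc4 rank in P0.5 fiber, lost with a promoter of 1 kb, is not among the 127. Merge distances of 0 bp and 100 bp changed no value beyond these limits. With a q value under 0.001, P0.5 fiber had 33 peaks at the Nfat loci, the share in E14.5 fiber and not E14.5 epithelium was 31.9% (all regions 34.8%), the P0.5 shares were 44.4% for epithelium (51.1%) and 24.1% for fiber (18.4%), and the fiber shares were 70% at E14.5 and not P0.5 (74.3%) and 8% the other way (6.68%). With equal numbers of peaks, the loci held 54 peaks in epithelium and 60 in fiber at E14.5 and 55 and 76 at P0.5, so that P0.5 fiber and no longer E14.5 fiber had the most, and 125 merged regions of which 15.2% were in all 4 lists (16.4%), the share in E14.5 fiber and not E14.5 epithelium was 28.6% (24.8%), and the stage shares were 25.4% (27.0%) and 20.6% (22.4%) in epithelium and 34.0% (40.5%) and 42.7% (33.0%) in fiber. Gene bodies alone held 43 and 52 peaks in epithelium and fiber at E14.5, 21 and 33 at P0.5, and 81 merged regions, and bodies with 10 kb held 58, 71, 30 and 45. Among P0.5 fiber peaks with a q value under 0.001, 1 Nfat gene stayed in the top 10%, with Nfat5 at 5.34% and Nfatc3 at 15.7%, since that list is shorter. Nfatc1, Nfatc2 and Nfatc4 moved there to 71.0%, 43.8% and 54.0%, behind P0.5 epithelium at 49.5%, 39.1% and 18.2%, which turned the order of the tissues for Nfatc1 and Nfatc2. A promoter of 1 kb left Nfatc4 with no peak in P0.5 fiber and at 75.7% in P0.5 epithelium. GGAAA stood in 20.1% of 100 bp windows and TGGAAA in 11.6% of 200 bp windows. Pooled lists limit every comparison: a missing peak can be a weak site, and depth cannot be read from the lists.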

Other observations

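The Rel and NF-kappaB genes, whose proteins share the DNA-binding fold of the NFAT family, had promoter peaks in all 4 lists for 5 of 5 members, as the Nfat genes did. Their ranks lay closer together than those of the Nfat genes, from 6.04% to 10.4% in E14.5 epithelium and from 4.52% to 7.61% in E14.5 fiber, against 1.83% to 27.7% and 1.74% to 22.8% for the Nfat genes. At P0.5 they lay from 6.64% to 16.5% in epithelium and from 6.31% to 18.2% in fiber, against 4.22% to 42.9% and 2.61% to 34.7%. Rel, best known from lymphocytes, was the strongest of them in E14.5 fiber and P0.5 epithelium, at 4.52% and 6.64%. Relb ranked at 6.04% and 5.30% in epithelium and fiber at E14.5 and at 14.6% and 14.0% at P0.5.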
